A study of Mus musculus with 12 samples.

Results

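Hmx2 and Hmx3, a pair of homeobox genes that lie side by side in the mouse genome, and 5 other genes were described across serotonin neurons and the cells around them: Pdzrn4, Vstm2a, Cited1, Otor and A930009L07Rik. The 7 genes were chosen because earlier work on these same arrays had found their signals higher in rostral serotonin neurons than in caudal serotonin neurons and than in the other rostral cells. All probe sets whose symbol in the array's probe table is one of the 7 names were taken, which gave 8 of 45101 probe sets. Each of the 7 genes had a probe set among the 12845 genes that passed the filter on low signals, but Cited1 passed through the rostral serotonin neurons, with 1 array over the filter in all other groups.

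Cells were taken from neural tubes of E12.5 mouse embryos. Every embryo of every group carried ePet-EYFP, a transgene that makes yellow fluorescent protein (YFP) in serotonin neurons. Tissue was cut at the pontine flexure, and each piece was dissociated and sorted on YFP. R+ was the YFP-positive population of the rostral domain, which extends to the mesencephalic flexure, and R- was everything YFP-negative there. C+ and C- were the same populations of the caudal domain, which extends to the spinal cord. Each group had 3 arrays labelled as biological replicates, each made from 200000 sorted cells. Whether replicates came from separate litters is not in the labels, so p-values set group differences only against the spread among these arrays. R- and C- are mixtures of all remaining neural tube cells, not a neuron type.

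Hmx proteins are transcription factors of the NK-like homeobox class, which bind DNA through a homeodomain. Hmx2 and Hmx3 are known for partly overlapping roles in the inner ear and the hypothalamus. Serotonin neurons arise in the ventral hindbrain, and those of its rostral part project mainly to the forebrain while caudal ones project to the brainstem and spinal cord.

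The promoters of the Hmx pair and of Pdzrn4 are shown. These 3 genes were among the 5 that ranked highest for the rostral serotonin neurons, and Hmx2 and Hmx3 share a locus. Cited1 and Otor, also among those 5, are not printed. The sequences are RefSeq's for build GRCm38.p6, running from 250 bases before to 50 bases after an annotated start, and all 4 lie on the plus strand. Capitals mark any match, on either strand, to 4 motifs. They are CAAGTG, a core bound by Hmx proteins, TAATTA, a palindrome bound by many homeodomains, GATAAG, a core bound by GATA factors, and TATAAA, the TATA box. No marked match overlaps another.
Hmx3, chr7:131542713-131543012: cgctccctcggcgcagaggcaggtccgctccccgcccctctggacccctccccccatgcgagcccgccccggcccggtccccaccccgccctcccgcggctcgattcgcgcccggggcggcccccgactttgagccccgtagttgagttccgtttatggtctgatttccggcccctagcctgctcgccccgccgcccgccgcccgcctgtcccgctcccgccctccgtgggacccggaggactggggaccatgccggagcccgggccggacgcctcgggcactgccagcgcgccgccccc
Hmx2 start 1, chr7:131548507-131548806: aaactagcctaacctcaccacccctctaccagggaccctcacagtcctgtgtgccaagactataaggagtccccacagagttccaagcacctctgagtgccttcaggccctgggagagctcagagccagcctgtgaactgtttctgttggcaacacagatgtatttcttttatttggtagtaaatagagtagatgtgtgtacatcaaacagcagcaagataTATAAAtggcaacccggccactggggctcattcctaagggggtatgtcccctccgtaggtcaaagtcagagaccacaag
Hmx2 start 2, chr7:131554043-131554342: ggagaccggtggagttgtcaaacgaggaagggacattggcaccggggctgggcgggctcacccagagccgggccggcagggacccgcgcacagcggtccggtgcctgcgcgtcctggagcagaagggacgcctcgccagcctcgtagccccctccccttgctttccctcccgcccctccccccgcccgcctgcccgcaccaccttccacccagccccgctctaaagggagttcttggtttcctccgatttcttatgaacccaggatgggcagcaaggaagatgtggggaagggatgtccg
Pdzrn4 start 2, chr15:92596859-92597158: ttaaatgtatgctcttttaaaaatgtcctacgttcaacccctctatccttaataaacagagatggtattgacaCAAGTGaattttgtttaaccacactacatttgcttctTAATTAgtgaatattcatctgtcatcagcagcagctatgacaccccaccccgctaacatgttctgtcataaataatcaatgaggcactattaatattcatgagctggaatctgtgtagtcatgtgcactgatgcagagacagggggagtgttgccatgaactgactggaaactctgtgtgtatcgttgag

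The neighbouring Hmx promoters differed in base composition. GC content was 78.0% for Hmx3, 67.7% for start 2 of Hmx2 and below the median of all 32851 promoters, 52.7%, for start 1 of Hmx2. The Pdzrn4 promoter shown was AT-rich, with a GC content of 39.3%. It held 1 CAAGTG and 1 TAATTA, motifs present in 13.6% and 5.29% of all promoters. None of the 3 Hmx promoters held the Hmx core, the homeodomain palindrome or the GATA core, the last of which occurred in 7.44% of all promoters. Start 1 of Hmx2 held 1 TATAAA, as did 13.6% of all promoters. RefSeq gave 10 promoters for 6 of the 7 genes, and of the 6 not printed, starts 1 and 2 of Cited1 and the promoter of Otor also held 1 TATAAA each. The remaining 3, start 1 of Pdzrn4 (GC content 50.3%), start 3 of Cited1 and the promoter of Vstm2a, held none of the motifs. Of the Pdzrn4 starts, start 2 is shown because it holds matches. Among the 10 promoters no other held CAAGTG or TAATTA. A match says only that these letters are present in the window.

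The sort was checked against 9 genes of serotonergic identity. Tph2, the enzyme that starts serotonin synthesis in the brain, had signals of 5578 to 6784 for R+, 1869 to 2449 for C+, 20 to 83 for R- and 18 to 41 for C-. All 9 genes were higher in R+ than in R- and in C+ than in C- (limma, adjusted p under 0.05). Over all genes 4.34% and 5.71% were called so. Between R+ and C+, 3 of the 9 were called higher in R+ and 0 lower, where 2.83% and 4.48% of all genes were called so. Among the 3 was the vesicular transporter Slc18a2, higher by 1.59 ± 0.18 on the log2 scale (SE; limma, adjusted p = 5.76e-05). The serotonin transporter Slc6a4 was at 66 to 124 in R- and 13 to 65 in C-. Ddc, which completes serotonin synthesis, kept signals of 1315 to 1739 in R- against 117 to 135 in C-. In R- against C-, 5 of the 9 genes were called higher and 0 lower, where 1.05% and 1.78% of all genes were called so. Ddc had the largest difference, 3.43 ± 0.14, and Slc6a4 had 1.41 ± 0.32 (limma, adjusted p = 5.48e-09 and 0.0271). Tph2 was not called, at 0.55 ± 0.34 (limma, adjusted p = 0.479). Markers of midbrain dopamine and noradrenaline neurons, 6 of 7 over the filter, summed to 4252 to 6797 for R- and 2039 to 2164 for C-. Of these 6, 1 was called higher in R- and 0 lower: Nr4a2, at 1.61 ± 0.18 (limma, adjusted p = 8.22e-05). The part of serotonin or dopamine neurons in the R- signals was not tested. The 3'/5' ratio of the beta-actin control probe sets, a measure of RNA length, was 2.64 to 4.39 on the 6 rostral arrays and 4.52 to 7.69 on the 6 caudal arrays. It did not overlap between domains, so it moves with every comparison of R+ with C+ and of R- with C-.

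Signals are MAS5 intensities, in arbitrary units. Differences between groups are those of log2(signal + 10), a scale on which the change of dim genes is understated. The differences of R+ from R- and from C+ were used to choose the 7 genes, so they are given as description with no test. In sorted RNA, fewer cells of a type and less RNA per cell cannot be told apart.

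Hmx2 had signals of 3999, 2915 and 3200 on R+ replicates 1, 2 and 3. It had 45, 32 and 84 for R-, 194, 58 and 116 for C+, and 197, 318 and 178 for C-. The 3 R+ arrays thus stood far above the 9 others, and the lowest signals were in R-, the cells sorted from the same tissue. R+ exceeded R- by 5.80 ± 0.38 (SE; 95% interval 4.99 to 6.61), and C+ by 4.80 ± 0.38. All R- signals and 1 C+ signal lay under the filter value of 107, the median of all signals, so the size of these differences depends on the pseudocount: with 50 in place of 10, R+ minus R- was 5.06. The mean of the 3 arrays was 3371 ± 562 (SD) for R+, 53.7 ± 27.1 for R-, 123 ± 68.2 for C+ and 231 ± 75.9 for C-.

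Hmx3, the gene next to Hmx2, had signals of 1006, 512 and 666 in R+. It had 96, 72 and 96 for R-, 64, 111 and 144 for C+, and 85, 39 and 113 for C-. Only R+ stood apart, while the 3 other groups overlapped around that filter value. The R+ difference was 2.87 ± 0.39 from R- and 2.67 ± 0.39 from C+. For both Hmx genes replicate 1 was the highest of the R+ arrays. The third member of the family, Hmx1, was at 4 to 15 in R+ and at 4 to 96 on the other arrays, and did not pass the filter.

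**Figure D1:**
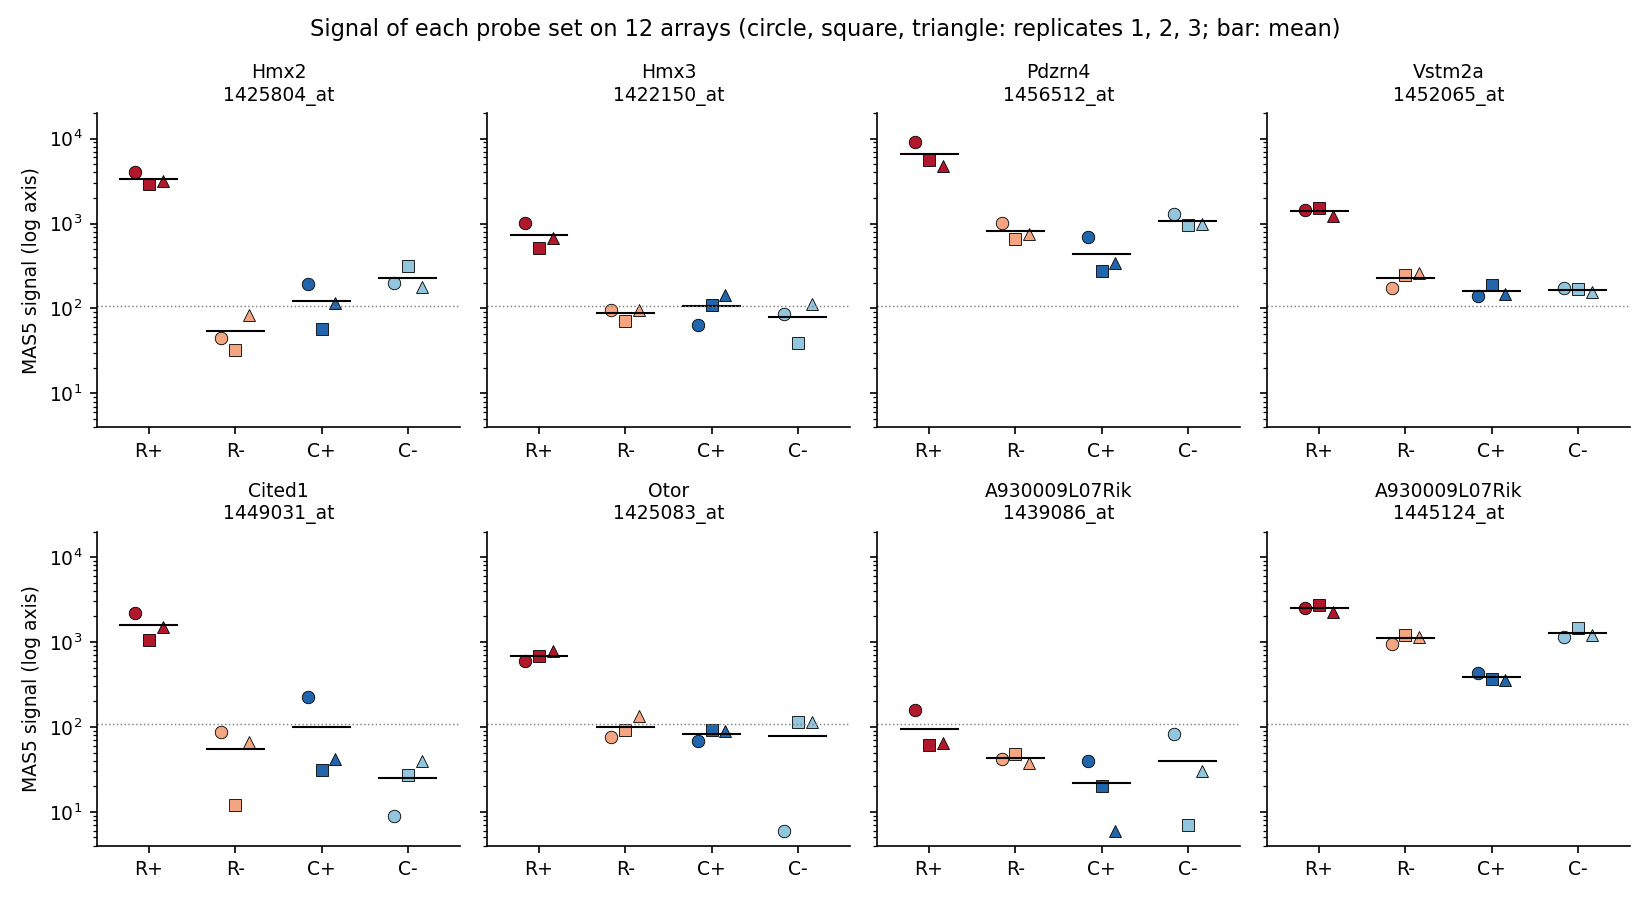
MAS5 signal (log axis) of the 8 probe sets on the 12 arrays, by group, with circles, squares and triangles for replicates 1, 2 and 3, a bar for the group mean and a dotted line at the filter value of 107. In every panel the R+ mean is the highest, and Hmx2 R+ arrays lie at 2915 to 3999 against 32 to 318 elsewhere.

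Pdzrn4 encodes a PDZ and RING finger protein, of a family that includes ubiquitin ligases. Its signals were 9157, 5640 and 4755 in R+ and 1023, 652 and 747 in R-. They were 696, 276 and 343 in C+ and 1288, 951 and 996 in C-. Unlike Hmx3, Pdzrn4 was well over the filter on all 12 arrays, and its lowest signals were in the caudal serotonin neurons. In each of the 4 groups replicate 1 had the highest Pdzrn4 signal. The rostral serotonin neurons exceeded R- by 2.97 ± 0.31 (7.81-fold) and C+ by 3.92 ± 0.31 (15.1-fold).

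Cited1 encodes a transcriptional co-regulator without a DNA-binding domain of its own, which acts through the CBP and p300 coactivators. Its signals were 2219, 1069 and 1513 in R+ and 86, 12 and 66 in R-. They were 227, 31 and 42 in C+ and 9, 27 and 40 in C-. Outside R+, 1 array of 9 exceeded 107, C+ replicate 1. Cited1 differed by 4.83 ± 0.67 between R+ and R- and by 4.27 ± 0.67 between R+ and C+, with the widest errors of the 7 genes. Since nearly all signals outside R+ were under the filter value, no fold is given.

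Vstm2a, a secreted immunoglobulin-domain protein, had signals of 1447, 1514 and 1228 in R+ and 174, 248 and 258 in R-. It had 142, 187 and 146 in C+ and 176, 170 and 155 in C-. The R+ arrays were close to each other, and all 9 others lay between 142 and 258. The difference of R+ was 2.59 ± 0.20 from R- and 3.07 ± 0.20 (8.38-fold) from C+.

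Otor, named for otoraplin, a secreted protein known from the cochlea, had signals of 596, 679 and 794 in R+ and 77, 91 and 133 in R-. It had 68, 92 and 89 in C+ and 6, 114 and 113 in C-. Apart from C- replicate 1, which was near 0, the arrays outside R+ were close to the filter value. Otor was higher in R+ by 2.69 ± 0.59 than in R- and by 2.91 ± 0.59 than in C+.

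A930009L07Rik, a transcript with a clone name and no entry in the RefSeq table used, had a different order of groups. At its brighter probe set the signals were 2536, 2702 and 2244 in R+ and 956, 1224 and 1149 in R-. They were 428, 368 and 354 in C+ and 1131, 1475 and 1201 in C-. R+ was again highest, but here both YFP-negative groups lay above the caudal serotonin neurons without overlap. R+ exceeded R- by 1.16 ± 0.16 (2.24-fold) and C+ by 2.67 ± 0.16 (6.37-fold). The other probe set of this gene was at 6 to 158 over the 12 arrays and did not pass the filter.

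In the order of group means R+ came first for all 8 probe sets, and its 3 arrays did not overlap with those of the group ranked next. The lower 3 groups overlapped with their neighbours in that order, apart from R- and C+ at the brighter probe set of A930009L07Rik. The order of those groups differed between genes: the lowest was R- for Hmx2, C- for Hmx3, Cited1 and Otor, and C+ for Pdzrn4, Vstm2a and both probe sets of A930009L07Rik.

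Among the values used for the choice, genes were ranked by the smaller of the R+ differences from R- and from C+. Hmx2 ranked 1 of 12845 with 4.80, Cited1 2 with 4.27, Pdzrn4 3 with 2.97, Otor 4 with 2.69, Hmx3 5 with 2.67 and Vstm2a 7 with 2.59. The gene between them at rank 6 was Pcsk5, a proprotein convertase that was not in the list, with 2.61. The first after them was Lyz1, a lysozyme, at rank 8 with 2.24, and another lysozyme gene, Lyz2, ranked 16 with 1.74. A930009L07Rik ranked 48 with 1.16. A smaller difference over 1 was found in 70 genes and over 3 in 2 genes, Hmx2 and Cited1.

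**Figure D2:**
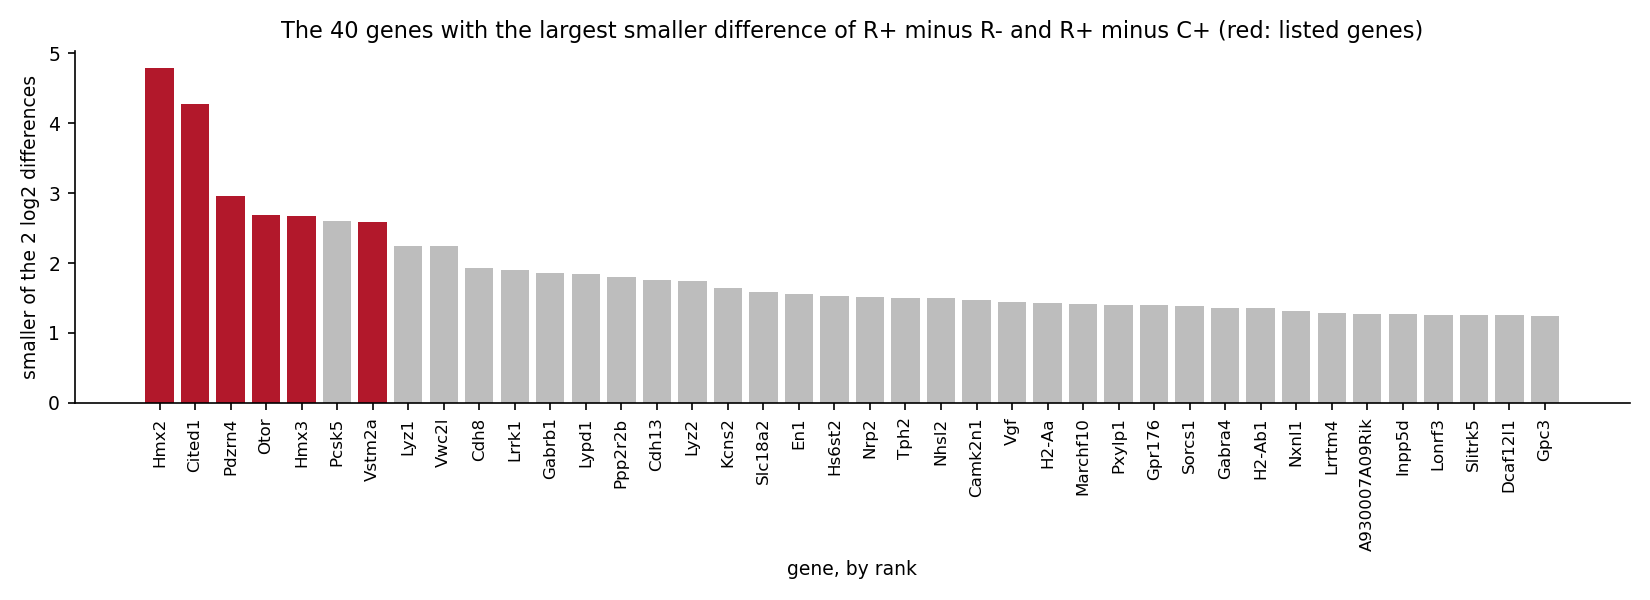
The 40 genes with the highest values of the smaller of 2 log2 differences, R+ minus R- and R+ minus C+, in rank order, with bars from 0 and the listed genes in red. The bars fall from 4.80 for Hmx2 to 2.59 for Vstm2a at rank 7, and A930009L07Rik, at rank 48, is not among them.

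The comparison of C+ with C-, serotonin neurons against other cells in the caudal domain, was not used for the choice but shares its C+ arrays with a contrast that was. Choosing genes for R+ above C+ favours low C+ signals, so these differences lean towards negative values and their p-values are not independent of the choice. No listed gene rose in C+, and 2 of 7 fell, with a median difference of -0.08 against -0.04 over all genes. Over all 12845 genes 5.71% were called higher and 7.39% lower. Pdzrn4 was -1.38 ± 0.31 (limma, adjusted p = 0.00658) and A930009L07Rik was -1.70 ± 0.16 (adjusted p = 2.42e-06), and for both the 3 C+ arrays lay below the 3 C- arrays.

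Hmx2 was -0.96 ± 0.38 in C+ against C- (adjusted p = 0.125, 95% interval -1.76 to -0.15). Without C+ replicate 1, the highest C+ array, the difference was -1.34 with adjusted p = 0.0219. Hmx3 was 0.42 ± 0.39 (adjusted p = 0.577, interval -0.41 to 1.26), Vstm2a -0.08 ± 0.20 (adjusted p = 0.865, interval -0.52 to 0.36), Cited1 1.28 ± 0.67 (adjusted p = 0.264, interval -0.15 to 2.71) and Otor 0.56 ± 0.59 (adjusted p = 0.632). Cited1 passed the filter through R+, and its value here rests on signals of which 1 of 6 was over 107. Without C- replicate 1, where the signal was 6, Otor was -0.42. The rostral difference minus the caudal one, which has no test because its rostral term was used for the choice, was 6.76 for Hmx2, 4.35 for Pdzrn4, 3.54 for Cited1, 2.86 for A930009L07Rik, 2.67 for Vstm2a, 2.45 for Hmx3 and 2.12 for Otor.

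The comparison of R- with C- asks whether the other cells of the domains differ, and shares its R- arrays with the choice. Choosing genes for R+ above R- favours low R- signals, so these differences also lean towards negative values. Their p-values, too, are not independent of the choice. Hmx2 was lower in R-, at -1.96 ± 0.38 (limma, adjusted p = 0.00930), with all R- arrays below all C- arrays. All 3 R- signals were under the filter value. Without C- replicate 2, the brightest C- array, the difference was -1.71 with adjusted p = 0.0539. Hmx3 was 0.23 ± 0.39 (adjusted p = 0.842, interval -0.60 to 1.06). The 5 other genes ranged from -0.43 ± 0.31 for Pdzrn4 to 0.79 ± 0.59 for Otor, with adjusted p of 0.385 or more, and Otor turned to -0.19 without C- replicate 1. In all, 0 of 7 genes were higher and 1 of 7 lower, with a median of 0.23 against -0.04 over all genes, of which 1.05% were called higher and 1.78% lower. Cited1, which passed the filter through R+, is counted among the 7, with signals of 12 to 86 in R- and 9 to 40 in C-.

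**Figure D3:**
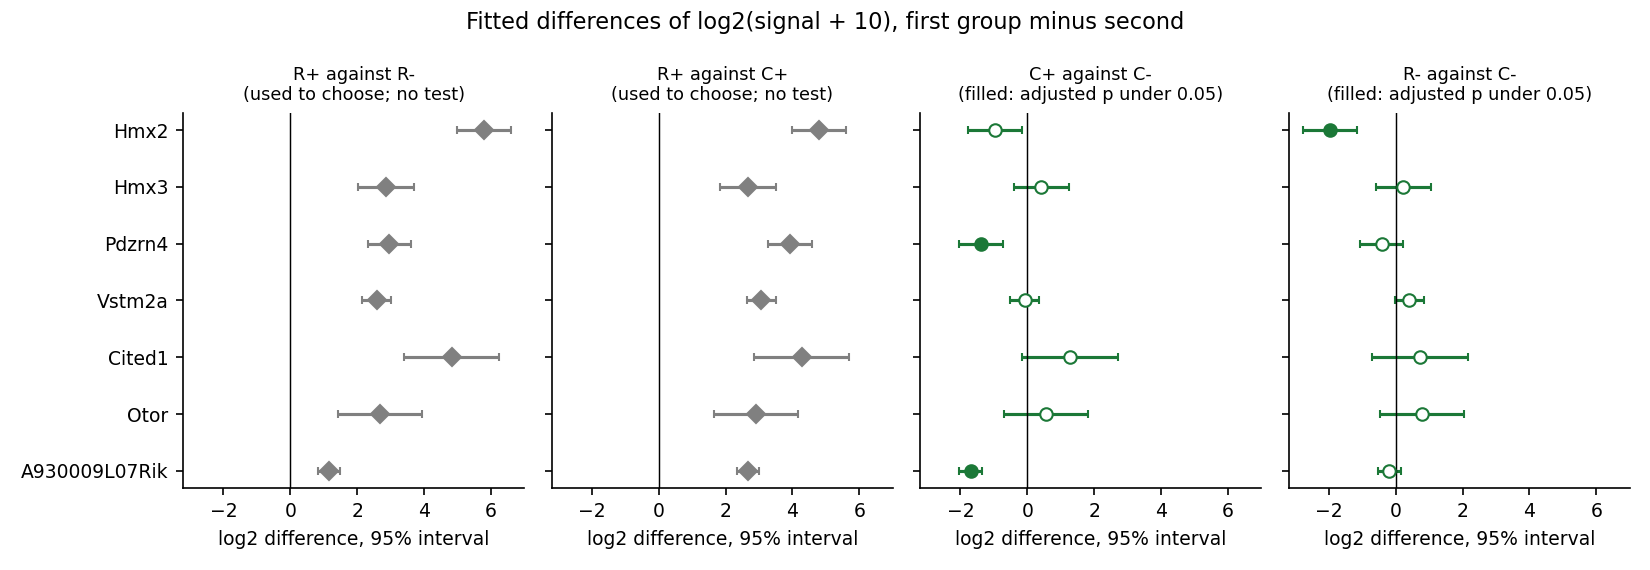
Fitted differences of log2(signal + 10) for the 7 genes in 4 comparisons, first group minus second, with 95% intervals. Grey diamonds mark the comparisons used to choose the genes; filled green circles have an adjusted p under 0.05. Only Pdzrn4 and A930009L07Rik are filled in C+ against C-, and only Hmx2 in R- against C-.

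With the actin ratio as a covariate in the fit, R+ minus C+ was 3.98 for Hmx2, 3.08 for Pdzrn4 and 2.99 for Cited1, and the 4 other genes moved by less than the spread between replicates. The part of RNA length in these differences was not tested beyond that fit. Summed signals of the serotonergic identity genes were 70752, 66539 and 64042 on R+ replicates 1, 2 and 3. Replicate 1 was thus highest for that sum as it was for Hmx2, Hmx3, Pdzrn4 and Cited1, while Vstm2a and A930009L07Rik were highest on R+ replicate 2 and Otor on R+ replicate 3.

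Markers of other cells that a sort could carry over were set beside these results. Of 12 markers of the otic epithelium, where Hmx2, Hmx3 and Otor are known, 11 were on the array and 4 passed the filter. Signals summed over the markers on the array were 683 to 971 for R+, 740 to 848 for R-, 619 to 855 for C+ and 659 to 1294 for C-. None of the 4 was called in any of the 4 comparisons, and defining genes such as Oc90, Tecta and Coch did not pass the filter. Melanocyte markers, a lineage known to express Cited1, summed to 720 to 1131 for R+, 1132 to 1404 for R-, 940 to 1158 for C+ and 2305 to 2787 for C-, with 5 of 8 over the filter. Kit carried much of that sum: it was lower in R+ than in R-, at -1.73 ± 0.19 (adjusted p = 1.63e-05), whereas the median over the 5 was 0.72 and Mitf had 1.29 ± 0.47 (adjusted p = 0.0964). The defining genes Dct, Tyrp1 and Mlana did not pass the filter, and the part of these cells in the Cited1 signal was not tested. Macrophage markers, of which 3 of 6 passed, summed to 668 to 1033 for R+, 875 to 1209 for R-, 434 to 469 for C+ and 769 to 986 for C-. The R+ sums exceeded those of C+. Csf1r, at 439 to 644 in R+ and 233 to 269 in C+, carried much of these sums. It was higher in R+ than in C+ by 0.98 ± 0.21 (limma, adjusted p = 0.0126). Cx3cr1 at 0.29 ± 0.45 and C1qb at -0.34 ± 0.56 were not called (adjusted p = 0.756 and 0.766). The lysozyme genes Lyz1 and Lyz2, ranked 8 and 16 above, were not among the markers. The part of macrophages in the differences of R+ from the other groups was not tested. Red blood cell markers, 4 of 6 over the filter, summed to 8708 to 15585 for R+, 45130 to 59155 for R-, 4804 to 8716 for C+ and 40507 to 44980 for C-. Mesenchymal markers, 5 of 6 over the filter, summed to 480 to 549 for R+, 611 to 1035 for R-, 2721 to 3143 for C+ and 1820 to 3107 for C-. Dcn, at 2178 to 2494 in C+, carried most of the C+ sums. It was higher in C+ than in C- by 2.50 ± 0.29 (limma, adjusted p = 2.38e-05). By contrast, 3 of the 5 were called lower in C+ against C-, among them Col3a1 at -2.01 ± 0.34. Over all genes 7.39% were called lower there. Pdgfra, which passed the filter through C- alone, is counted among the 3.

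The other genes of the NK-like homeobox class set Hmx2 and Hmx3 in their family. Of 46 listed relatives 41 were on the array and 26 passed the filter. Against R-, 2 rose and 10 fell in R+, with a median of -0.74 against -0.01 over all genes, where 4.34% were called higher and 7.86% lower. The 2 that rose were Nkx2-2, a determinant of ventral identity, by 2.77 ± 0.18 (limma, adjusted p = 7.95e-08), and En1, a factor of the midbrain and rostral hindbrain, by 1.56 ± 0.29 (adjusted p = 0.00191). The genes that fell were led by Dbx1 at -3.21 ± 0.29, Msx3 at -2.67 ± 0.32, and Tlx3 at -2.66 ± 0.34, which are known from dorsal and intermediate neural tube. Msx3, Tlx3 and Dbx1 also fell in C+ against C-, where 2 relatives rose and 7 fell with a median of -0.62. Over all genes 5.71% were called higher and 7.39% lower there, with a median of -0.04.

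Between the 2 serotonin populations, 3 of the 26 relatives were higher in R+ and 2 lower, with a median of 0.16 against -0.05 over all genes, of which 2.83% were called higher and 4.48% lower. En2 was higher by 4.04 ± 0.34 and En1 by 3.79 ± 0.29 (limma, adjusted p = 1.97e-06 and 1.01e-06). Nkx6-1, a ventral progenitor and motor neuron factor, was lower, at -4.39 ± 0.37 (adjusted p = 2.35e-06). Emx2 at 2.02 ± 0.53 and Lbx1 at -1.19 ± 0.28 were also called. All Emx2 signals in this comparison lay under the filter value, at 56 to 95 in R+ and 5 to 18 in C+. Emx2 and Lbx1 lost the call with the actin ratio as a covariate, with adjusted p of 0.350 and 0.500. The call of Emx2 was also lost without any one R+ or R- array or C+ replicate 3 (adjusted p from 0.0589 to 0.142), and that of Lbx1 without replicate 1 or 3 of R+ or replicate 2 or 3 of C+ (from 0.0713 to 0.0924).

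En1 was the one relative called higher in R+ against both R- and C+. Its signals were 1317, 1544 and 1510 for R+, 494, 526 and 441 for R-, 149, 107 and 54 for C+, and 97, 144 and 84 for C-. Unlike Hmx2, En1 was also higher in R- than in C-, by 2.10 ± 0.29 (adjusted p = 0.000643), and thus stood above the caudal groups in both rostral populations. En2 was at 2092 to 2312 in R+ and higher in R-, at 3339 to 4041, against 27 to 175 in the caudal groups. Nkx2-2 showed no call between the serotonin populations (0.26 ± 0.18, adjusted p = 0.415). In R- against C-, 5 relatives were higher and 1 lower, with a median of 0.34. Over all genes 1.05% were called higher and 1.78% lower there, with a median of -0.04. Emx2 passed the filter through R- alone. It is counted among the 5 relatives higher in R-, the 10 that fell in R+ against R- and the 3 higher in R+ than in C+.

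**Figure D4:**
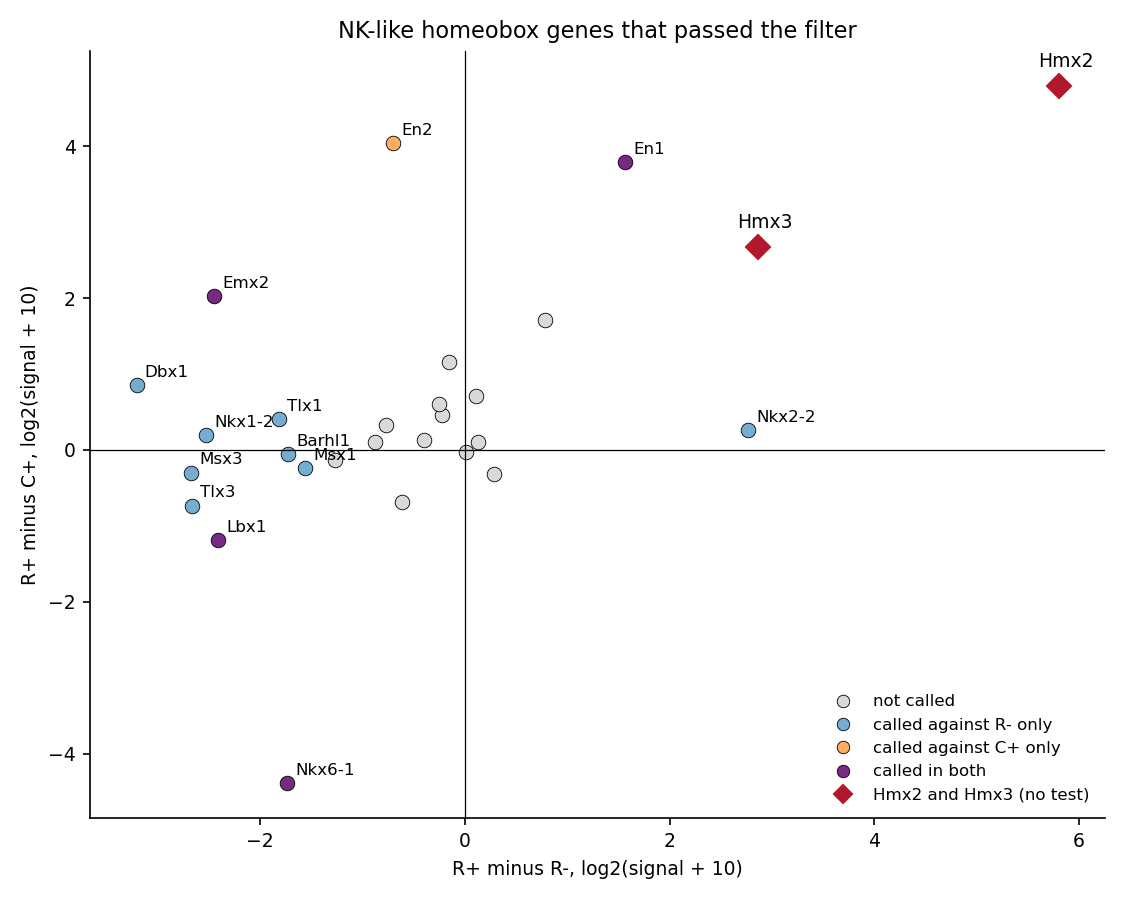
Each point is an NK-like homeobox gene that passed the filter, placed by its log2 difference R+ minus R- (horizontal axis) and R+ minus C+ (vertical axis), with colour giving the calls. Hmx2 at 5.80 and 4.80 and Hmx3 at 2.87 and 2.67 (diamonds, no test) lie at the upper right with En1 at 1.56 and 3.79, and 10 relatives are called to the left of 0.

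Of 11 close relatives of the other listed genes 10 were measured, and none was called between R+ and C+. Against R-, where 7.86% of all genes were called lower, 1 fell in R+, with a median of -0.11 against -0.01 over all genes. That gene was Pdzrn3, the paralogue of Pdzrn4, with signals of 235, 184 and 338 for R+, 2136, 2721 and 2476 for R-, 156, 174 and 267 for C+, and 2355, 1851 and 2002 for C-. Pdzrn3 was low in both serotonin populations and high in both YFP-negative ones, with -3.26 ± 0.23 in R+ against R- (limma, adjusted p = 2.05e-07) and -3.34 ± 0.23 in C+ against C- (adjusted p = 1.33e-07). R+ minus C+ was 0.32 ± 0.23 (adjusted p = 0.437). Cited2, a relative of Cited1, had -0.26 ± 0.11 in R+ against R- (adjusted p = 0.172) and fell in C+ against C- by 0.72 on the log2 scale (adjusted p = 0.000457). Vstm2b, the relative of Vstm2a, had 0.49 ± 0.15 in R+ against R- (adjusted p = 0.0503) and rose in C+ by 0.64 ± 0.15 (adjusted p = 0.0115).

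Of 7 listed partners of Cited1, 5 were measured, and 2 fell in R+ against R- and in C+ against C-, where 7.86% and 7.39% of all genes were called lower. These were the AP-2 factors: Tfap2a at -3.38 ± 0.27 and Tfap2b at -2.99 ± 0.24 in R+ against R- (limma, adjusted p = 7.46e-07 and 8.95e-07). Tfap2a was at 109 to 282 in R+ and at 1569 to 2085 in R-. Crebbp, Ep300 and Smad4 were called in none of the 4 comparisons. Of 5 genes tied to Hmx2 and Hmx3 in ear or hypothalamus 2 were measured, with low signals. Gsx1, a homeobox gene of the hypothalamus and dorsal neural tube, fell by 2.97 on the log2 scale in R+ against R- (adjusted p = 0.00489). Ghrh, the growth hormone releasing hormone, had 0.40 ± 0.78 (adjusted p = 0.841).

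The genes beside Hmx2 and Hmx3 were then read. In RefSeq's order on chromosome 7 the protein-coding genes are Acadsb, Hmx3, Hmx2 and Bub3. Bub3, a spindle checkpoint protein, had signals at its brightest probe set of 14109, 13340 and 12839 for R+, 5784, 5315 and 6420 for R-, 5623, 4943 and 5021 for C+, and 5142, 4824 and 5350 for C-. All 3 R+ arrays stood above the 9 others, which lay within a narrow range. Bub3 was higher in R+ by 1.20 ± 0.11 against R- (limma, adjusted p = 2.97e-06) and by 1.37 ± 0.11 against C+ (adjusted p = 1.70e-06). C+ minus C- was 0.02 ± 0.11 (adjusted p = 0.932), and R- minus C- was 0.19 ± 0.11 (adjusted p = 0.454).

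The other Bub3 probe set that passed the filter gave 4013, 3313 and 3555 in R+ and 950 to 1715 on the other arrays. In a fit of all kept probe sets it was higher in R+ by 1.43 ± 0.16 against R- and by 1.14 ± 0.16 against C+ (limma, adjusted p = 5.84e-05 and 0.00104). There it was also higher in C+ than in C-, by 0.62 ± 0.16 (adjusted p = 0.0235). Acadsb, on the other side of Hmx3, was not called, with mean signals of 580 ± 74.8 (SD) for R+, 557 ± 95.5 for R-, 728 ± 70.8 for C+ and 613 ± 15.2 for C-. These values rest on an _x_at probe set, a type used only where a gene had no other kept. A list of 6 other spindle checkpoint genes was drawn up after the values of Bub3 were seen. In R+ against R- 5 of them were called lower and 0 higher (-2.22 for Bub1 to -0.22 for Mad1l1). Over all genes 7.86% were called lower and 4.34% higher there. In R+ against C+ the differences were 0.03 to 0.49 with none called.

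**Figure D5:**
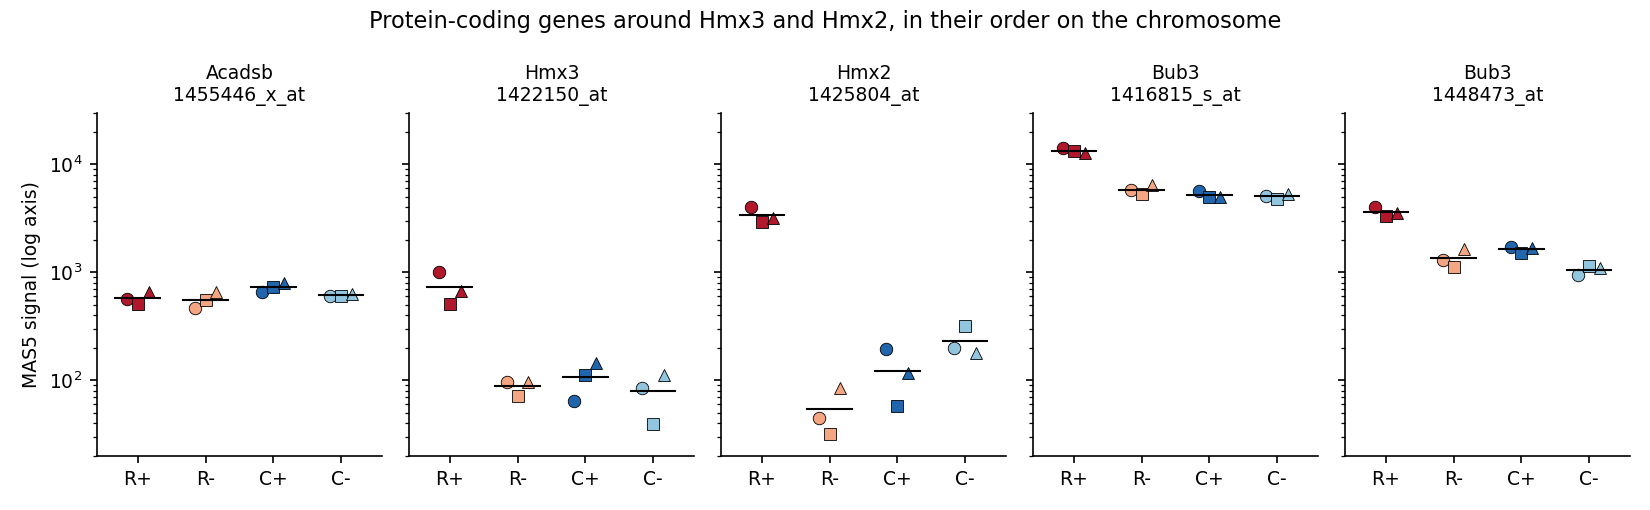
MAS5 signal (log axis) by group for the genes around Hmx3 and Hmx2, in chromosome order, with symbols for replicates 1, 2 and 3 and bars for means. Hmx3, Hmx2 and the 2 Bub3 probe sets that passed the filter are highest in R+, the brightest Bub3 probe set at 12839 to 14109 against 4824 to 6420 elsewhere, and Acadsb shows no such step.

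Among 10 neighbours of the listed genes that were not listed themselves, 7 were measured and 2 were called higher in R+ against both R- and C+, Bub3 and Cntn1. Over all genes 71 of 12845, or 0.553%, were called so. Cntn1, a neuronal cell adhesion molecule next to Pdzrn4, had mean signals of 2623 ± 157 (SD) for R+, 322 ± 61.1 for R-, 1305 ± 215 for C+ and 555 ± 172 for C-. It was higher in R+ by 3.00 ± 0.22 against R- (limma, adjusted p = 3.67e-07) and by 1.01 ± 0.22 against C+ (adjusted p = 0.0140), and it also rose in C+ against C- by 1.26 ± 0.22. The call against C+ was lost with the actin ratio as a covariate (adjusted p = 0.0744) and without R+ replicate 1 (0.0543), R+ replicate 3 (0.0521) or C+ replicate 2 (0.0754). In the fit of all kept probe sets, another Cntn1 probe set gave 3.28 ± 0.36 against R- and 1.40 ± 0.36 against C+ (limma, adjusted p = 4.76e-05 and 0.0445). There its C+ minus C- was not called (adjusted p = 0.162). A dimmer one, at 64 to 251, was not called against R- (0.47 ± 0.42) or C+ (-0.06 ± 0.42).

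The genes whose log2 signals over the 12 arrays were most like those of Hmx2 were Man2a1, a Golgi mannosidase, with Pearson r of 0.94, the corepressor Tle2 with 0.93 and the glypican Gpc3 with 0.92. Pdzrn4 ranked 6 of 12844 with 0.90 and Bub3 8 with 0.89. For Hmx3 the nearest were Dbndd1 and Bub3, both at 0.94, and Vstm2a ranked 4 with 0.92. For Cited1 they were Qdpr, which regenerates the cofactor of serotonin synthesis, and Bub3, both at 0.94. Hmx3 ranked 27 in likeness to Hmx2, with 0.84. These arrays fall into 4 groups of 3 with R+ far from the rest for every listed gene, so all these correlations share the step from R+ to the other groups, and they are given as a description. Bub3 was among the 8 nearest genes of Hmx2, Hmx3 and Cited1.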

How the data were processed

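The series holds 12 Affymetrix mouse expression arrays in 4 groups of 3. The values are signal intensities as deposited by the authors, on a linear scale; MAS5 is named in the submitters' processing notes, with version and settings not given in the sources used. The mean without the lowest and highest 2% was 500 on every array. Probe sets were named from the platform's probe table. The filter kept probe sets above 107 (the overall median signal) on 3 or more arrays, and each gene took its brightest kept probe set by mean log2 signal, with _x_at ones as a last resort. Group means of log2(signal + 10) were fitted over all 12 arrays with limma 3.58.1 in R 4.3.3 (lmFit, eBayes with a trend), with two-sided tests and Benjamini-Hochberg adjustment over 12845 genes at 0.05. The procedure was tested on simulated data.

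The number of arrays limits precision. Arrays with the same replicate number deviated together from their group means (r of 0.118 to 0.52 in 18 of 18 pairs; -0.398 to 0.273 in the 36 others), so the numbers were taken to pair the samples. The fits behind the reported p-values hold no term for this pairing, which entered only as an alternative, the replicate block.

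The listed genes and the gene lists were chosen with earlier results of these data known. Named relatives are those with the largest called differences, neighbours are the nearest protein-coding genes in RefSeq's order, and like genes are the 8 with the highest Pearson r. Bub3, Cntn1 and the other relatives given with values were singled out after their values were seen. Alternatives were a replicate block, pseudocounts of 1 and 50, no filter, other scalings, the mean over probe sets, fits of 2 groups, the actin ratio as a covariate, and leaving out each array.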

Additional observations from a re-analysis of the deposited data

Results flagged for a closer look

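Nkx6-1 and Nkx2-2 were the relatives of Hmx2 and Hmx3 whose difference between serotonin neurons and other cells itself differed between the domains. For Nkx6-1 the rostral difference minus the caudal one was -3.85 ± 0.52 (limma, adjusted p = 0.00114): it fell in R+ against R- and rose in C+ against C-. For Nkx2-2 it was -1.37 ± 0.25 (adjusted p = 0.0108), and Nkx2-2 rose in both domains, by 2.77 rostrally and 4.14 caudally. Its R+ minus C+ difference was 0.26 ± 0.18 and not called (adjusted p = 0.415). R- exceeded C- by 1.63 ± 0.18 (limma, adjusted p = 5.57e-05), with C- signals of 104 to 124, near the filter value of 107.

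For Pdzrn4 and A930009L07Rik all R+ arrays lay above the R- arrays and all C+ arrays below the C- arrays. The first was a condition of the choice, and choosing genes for R+ above C+ also favours low C+ signals, so the opposite signs are partly fixed by the choice and are given as a description. C+ minus C- was -1.38 for Pdzrn4 and -1.70 for A930009L07Rik. The difference between the domains was not tested for either, since the rostral values were used to choose the genes. Groups of 3 arrays are too small for a test of single outlying arrays.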

How the results depend on the processing

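Of 714 alternative values for the listed genes and the counts, 696 kept their direction, their side of the threshold and, where untested, their size. The number of listed genes called in R- against C- was 0 to 1 on leaving out single arrays, against 1. The NK-like relatives called in R+ against C+ numbered 3 with the actin ratio as a covariate, 3 with only the 2 groups fitted, and 3 to 5 on leaving out single arrays, against 5. None of the differences that changed sign had passed the test. On leaving out single arrays, Hmx3 ranged from -0.15 (without C- replicate 2) to 0.51 in R- against C-, while Otor ranged from -0.42 (without C- replicate 1) to 1.06 for C+ against C- and from -0.19 (without the same array) to 1.28 for R- against C-. With other settings, Cited1 went in R- against C- to -0.34 with the actin ratio, and Vstm2a for C+ against C- to 0.0088 with a common median and 0.015 with quantile normalization. The cause was not tested.

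With the replicate block, which pairs the arrays by number, 2 listed genes were called between C+ and C- and 1 between R- and C-, as without it, and no call of a listed gene changed. With the block the NK-like relatives called numbered 12 in R+ against R- (12 without it), 7 in R+ against C+ (5), 12 for C+ against C- (9) and 8 for R- against C- (6). The block moved the calls over all genes from 1567 to 2684 in R+ against R-, from 940 to 2795 in R+ against C+, from 1683 to 2929 between C+ and C-, and from 363 to 1310 between R- and C-. In R+ against C+ there were 505 calls with a common median, 605 with 2 groups and 216 with the actin ratio, and in R- against C- 216 with the actin ratio. Scaling to a common median moved the share of calls that were higher in R- against C- from 37.2% to 52.0%. Signals under about 107 carry little information, which limits statements on Hmx2, Hmx3, Cited1 and Otor outside R+, the call of Hmx2 in R- against C- among them.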
